A study of Mus musculus with 10 samples.

Results

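The endothelial genes described here are 46 genes that mark the cells lining blood and lymph vessels, taken by symbol from the 49568 genes of the deposited table. They fall into 10 genes of liver sinusoidal endothelium, 3 signals sent by sinusoidal and central vein endothelium, 30 genes of vascular endothelium in general and 3 genes used as lymphatic markers. All 46 were present, and all averaged 10 normalized counts or more, the minimum for testing. The study sequenced RNA of reactive cholangiocytes, the proliferating bile duct cells of an injured liver, from 5 Ctl and 5 Smad4del mice, with 1 sample per mouse. All mice were fed a diet with 0.1% DDC, a toxin that injures bile ducts, for 2 weeks. The cells had been sorted from liver as EPCAM+/CD45-/TER119-, that is, positive for an epithelial surface protein and negative for a leukocyte and an erythroid protein. The sort did not include a step against an endothelial protein in the methods of the study.

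The labels give the genotypes as Smad4 wt/wt for Ctl and Smad4 fl/fl for Smad4del. Smad4 encodes a transcription factor of the TGFβ pathway and, by the methods of the study, was deleted with Alb-Cre, a recombinase driven by the albumin promoter. That promoter is active in hepatocytes and, through their shared precursors, in cholangiocytes, and endothelial cells are not its target. The Ctl mice lack the Cre, so the cohorts differ in the recombinase as well as in the alleles. The mice were of mixed background, and their sex, age and litter are not given in the labels used here. The labels also call each sample a cell line and carry a culture protocol, while the methods describe freshly sorted cells.

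Sinusoidal endothelium is the fenestrated lining of the liver's capillaries. It clears waste from the blood through scavenger receptors and sends Wnt ligands and an R-spondin to hepatocytes. Endothelium of other vessels shares with it the junction proteins, angiopoietin receptors and SOX and ETS transcription factors of the vascular lineage, whereas lymphatic endothelium depends on the homeobox factor PROX1. Several of these genes are also known from other liver cells: Stab1 from macrophages, Pdpn from fibroblasts and mesothelium, and Prox1 from hepatocytes and bile duct cells. The samples are bulk RNA, so several readings cannot be told apart in any of the values that follow. They are fewer endothelial cells, less RNA of a gene per endothelial cell, and a change in other sorted cells. The other sorted cells include the cholangiocytes, in which Smad4 was deleted.

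For 23 of the 46 genes RefSeq (GRCm38.p6) held a promoter, giving 29 promoters, which were searched on both strands for short motifs of SOX, ETS, GATA and SMAD factors. The SOX motif AACAAT was found in 5 of the 29 (17.2%), against 10.7% of all 32851 promoters of the same 300 bases. The ETS motif CCGGAA was in 1 of 29 (3.45%), against 14.9% of all promoters. The GATA motif AGATAA was in 3 (10.3%), against 11.2%. For SMAD proteins, CAGAC was in 13 (44.8%), against 49.6% of all, GGCGCC was in 4 (13.8%), against 11.9%, and GTCTAGAC was in 0, against 0.213%. A match describes letters in a window and not a bound site. The 150 bases upstream of the RefSeq start are printed 5′ to 3′ on the strand of the gene for 3 vascular genes with a SOX match within them, and for 2 sinusoidal genes and 1 lymphatic gene without one. Erg also has a SOX match within such a stretch, is not printed, and did not pass the expression test. The lymphatic gene Mmrn1 has the SOX motif in its promoter but outside these 150 bases, and did not pass either. A relation between the motif and expression was not tested. Capitals mark the SOX motif on either strand, which reads ATTGTT where it lies on the other strand.

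The stretches are chr4:94739139-94739288 (plus strand) for Tek, chr3:137340928-137341077 (plus strand) for Emcn, chr8:71395802-71395951 (minus strand) for Ushbp1, chr8:3720652-3720801 (minus strand) for Clec4g, chr11:103749822-103749971 (minus strand) for Wnt9b and chr4:143299565-143299714 (minus strand) for Pdpn. Expression of the first 5 was lower in Smad4del mice, and that of Pdpn did not pass the test.
Tek: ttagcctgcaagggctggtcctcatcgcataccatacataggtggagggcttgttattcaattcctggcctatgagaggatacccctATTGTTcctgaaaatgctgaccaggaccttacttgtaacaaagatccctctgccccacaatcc
Emcn: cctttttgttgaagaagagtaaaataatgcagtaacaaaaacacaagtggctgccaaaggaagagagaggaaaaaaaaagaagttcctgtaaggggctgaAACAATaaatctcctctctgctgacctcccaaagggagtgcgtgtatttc
Ushbp1: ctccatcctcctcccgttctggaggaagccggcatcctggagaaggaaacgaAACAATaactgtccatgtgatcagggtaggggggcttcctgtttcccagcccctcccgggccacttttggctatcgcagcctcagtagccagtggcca
Clec4g: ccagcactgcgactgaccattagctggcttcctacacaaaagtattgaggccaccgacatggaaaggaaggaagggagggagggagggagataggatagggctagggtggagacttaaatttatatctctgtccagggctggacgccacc
Wnt9b: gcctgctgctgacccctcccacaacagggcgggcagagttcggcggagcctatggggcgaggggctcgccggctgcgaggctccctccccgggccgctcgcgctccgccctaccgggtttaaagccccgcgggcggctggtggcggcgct
Pdpn: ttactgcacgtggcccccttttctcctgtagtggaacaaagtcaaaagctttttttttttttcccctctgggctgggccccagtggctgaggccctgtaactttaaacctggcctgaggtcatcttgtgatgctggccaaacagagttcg

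The deposited values are normalized counts, that is, reads per gene divided by a size factor of the mouse, with no correction for gene length. The recovered depth was 16249719 to 21277339 reads on genes per mouse. Smad4 itself was at 2969 to 3714 normalized counts in Ctl mice and 687 to 1031 in Smad4del mice, with no overlap between the cohorts. The sorted cells carried the marker RNAs of cholangiocytes, with the 14 listed genes summing to between 383422 and 560468 normalized counts in Ctl mice and between 556215 and 684924 in Smad4del mice. Mouse A5215 of the Ctl cohort stood apart, with the highest level of macrophage genes and the lowest of cholangiocyte genes. In all, 697 genes of 14870 tested (4.69%) were lower and 362 (2.43%) higher in Smad4del mice by limma with Benjamini-Hochberg adjustment at 0.05.

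Endothelial genes were lower in Smad4del mice as a group. Of the 46 genes, 34 fell and 0 rose by limma, where the background over all genes was 4.69% lower and 2.43% higher. With no adjustment, 42 were lower and 0 higher at p under 0.05, where 15.1% of all genes were lower and 12.3% higher. The difference was below 0 for 44 of 46 genes, the median log2 fold change was -1.48, and the median over all genes tested was -0.00. The 34 genes that fell lay between 1.86-fold (Cldn5) and 4.83-fold (Tek) lower. In 31 genes every Smad4del mouse was below every Ctl mouse, which held for 4.59% of all genes, and in 0 genes was every Smad4del mouse above, which held for 3.5% of all genes. Such a separation fixes the exact two-sided permutation p at 0.00794, the smallest that 5 mice against 5 allow. The p of these 31 genes therefore repeats the count and adds no support to it. Count tests on the recovered reads called 38 genes lower with DESeq2 (8.68% of all genes) and 33 with edgeR (4.02%), and 0 higher with either.

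**Figure D1:**
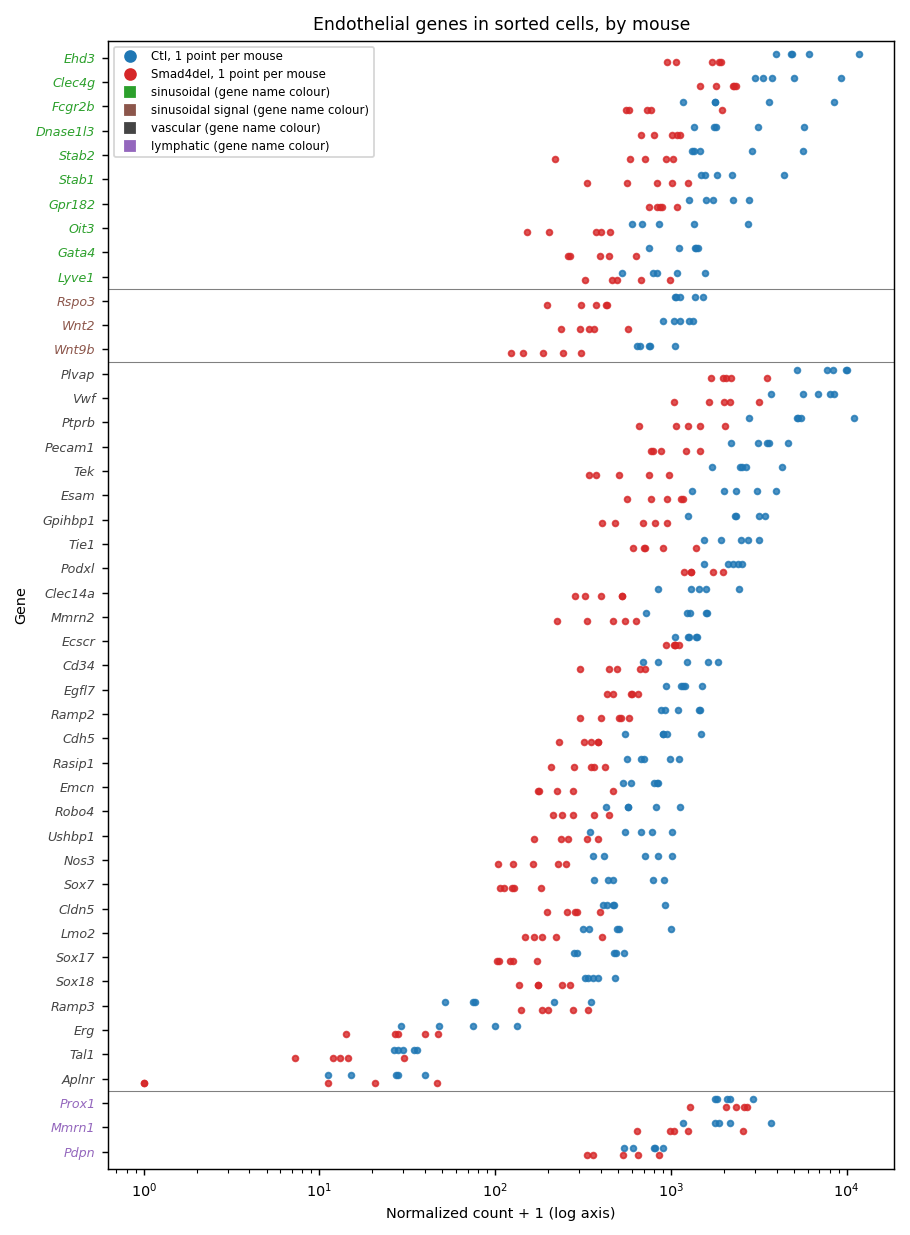
Normalized count + 1 of each of the 46 endothelial genes on a log axis, with 1 point per mouse, blue for the 5 Ctl and red for the 5 Smad4del mice. Genes are grouped by class and ordered by Ctl mean. For 31 genes all red points lie to the left of all blue points, while the others overlap, among them Prox1, Mmrn1, Pdpn and Ramp3.

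The endothelial RNAs were a small part of each library. Together the 46 genes made up 0.309% to 0.674% of the normalized counts in Ctl mice and 0.131% to 0.24% in Smad4del mice. Their summed level was 55873 to 133264 normalized counts in Ctl mice, with a median of 81401, and 23499 to 41868 in Smad4del mice, with a median of 32306. The cohorts did not overlap, and mouse A5215 was the highest.

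Among sinusoidal genes, 8 of 10 fell and the others did not pass the test, with a median log2 fold change of -1.60. Together with the 3 signals, 11 of 13 fell, and this count was 6 without A5626 or A5218, 7 without A5217 and 9 without A5215. Calls over all genes dropped in the same fits, from 697 lower to 457 without A5626 and 339 without A5218. They were 324 without A5217 and 461 without A5215. In the sentences that follow, values are normalized counts in the order A5215, A5219, A5221, A5626 and A5628 for Ctl and A5216, A5217, A5218, A5447 and A5624 for Smad4del. Stab2 (chr10:86841198-87008025, minus strand, GRCm38) encodes a scavenger receptor that clears hyaluronan from blood and was at 5659, 1466, 1318, 2879 and 1346 in Ctl and 707, 581, 219, 935 and 1032 in Smad4del mice. The cohorts did not overlap, A5215 was the highest and A5218 the lowest, and the log2 fold change was -1.78 ± 0.48 (SE, limma adjusted p = 0.0446). This call was kept in 2 of 10 fits that each left out 1 mouse, those without A5219 or A5447. Stab1, a related scavenger receptor also known from macrophages, was 1490 to 4425 in Ctl and 331 to 1257 in Smad4del mice, a log2 fold change of -1.55 ± 0.37 (limma adjusted p = 0.0296). Without A5215 the limma adjusted p of Stab1 no longer passed, and neither did it without A5626, A5217 or A5218.

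Ehd3 (chr17:73804134-73832094, plus strand), which encodes a protein of endocytic recycling, fell the most of the sinusoidal genes. It was at 11704, 3964, 4873, 6132 and 4822 in Ctl and 1882, 1063, 944, 1708 and 1937 in Smad4del mice. The lowest Ctl mouse was above the highest Smad4del mouse, with a log2 fold change of -2.01 ± 0.29 (limma adjusted p = 0.00322), and it passed with any 1 mouse left out. Clec4g, a C-type lectin of sinusoidal endothelium whose promoter is among those printed, was 9249, 3000, 3760, 4992 and 3334 in Ctl and 2347, 1800, 1459, 2250 and 2279 in Smad4del mice. All Ctl values were higher, but the fall was smaller, -1.16 ± 0.27 on the log2 scale (limma adjusted p = 0.0269). Oit3, which encodes a secreted protein of these cells, fell by 1.86 on the log2 scale, from 600 to 2736 in Ctl to 151 to 448 in Smad4del mice (limma adjusted p = 0.0242). Both calls were lost without A5626 or A5218, and that of Clec4g also without A5217.

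Gata4 encodes a transcription factor of sinusoidal identity that stellate cells and some epithelia also use. It was at 1434, 754, 1395, 1105 and 1374 in Ctl and 260, 396, 266, 442 and 631 in Smad4del mice, with a log2 fold change of -1.64 ± 0.26 (limma adjusted p = 0.00493). Mouse A5215 did not stand out in this gene, and the cohorts did not overlap. Gpr182, an atypical receptor that scavenges chemokines, was 1260 to 2782 in Ctl and 746 to 1086 in Smad4del mice (log2 fold change -1.08 ± 0.19, limma adjusted p = 0.00812). Dnase1l3, a secreted DNase also known from macrophages, was 1360 to 5725 in Ctl and 676 to 1133 in Smad4del mice (-1.36 ± 0.33, limma adjusted p = 0.0322). The call of Dnase1l3 was kept in 5 of 10 fits that left out 1 mouse, and was lost without A5221, A5626, A5217, A5218 or A5624.

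Lyve1 and Fcgr2b were the sinusoidal genes that did not pass. Lyve1, a hyaluronan receptor shared by sinusoidal and lymphatic endothelium and by some macrophages, was at 1568, 830, 1078, 786 and 523 in Ctl and 493, 460, 325, 671 and 990 in Smad4del mice. The ranges overlapped, and the 95% interval of the log2 fold change, -1.41 to -0.01, reached from a clear fall to nearly none (limma adjusted p = 0.174). Fcgr2b, an inhibitory receptor for IgG found on sinusoidal endothelium, macrophages and B cells, was 8418, 1776, 1788, 3601 and 1171 in Ctl and 1947, 726, 580, 772 and 556 in Smad4del mice. The difference of -1.66 had an interval of -2.74 to -0.58 and a limma adjusted p of 0.0618, and mouse A5216 lay far above the other Smad4del mice. Fcgr2b was called lower in 3 of 27 alternative fits (other settings or subsets of mice), and Lyve1 in 0.

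The 3 sinusoidal signals fell with little spread among the Ctl mice. Wnt2 (chr6:17988940-18030585, minus strand) encodes a Wnt ligand and was at 1036, 905, 1266, 1131 and 1341 in Ctl and 343, 301, 236, 362 and 569 in Smad4del mice. Every Ctl mouse was well above every Smad4del mouse, with a log2 fold change of -1.69 ± 0.21 (limma adjusted p = 0.00115). Wnt9b (chr11:103727364-103749821, minus strand), a second Wnt ligand of central vein endothelium, was at 758, 747, 663, 637 and 1058 in Ctl and 186, 123, 143, 309 and 241 in Smad4del mice, a log2 fold change of -1.999 ± 0.25 (limma adjusted p = 0.00118). Rspo3 (chr10:29452416-29535867, minus strand) encodes an R-spondin that amplifies Wnt signals and is also made by stellate cells and fibroblasts. It was at 1064, 1056, 1378, 1122 and 1514 in Ctl and 374, 197, 431, 308 and 424 in Smad4del mice, a log2 fold change of -1.86 ± 0.21 with the smallest limma adjusted p among the endothelial genes, 0.000742. In these 3 genes A5215 was not the highest Ctl mouse. Rspo3 shares 13.1% of its exon bases with an antisense gene, and the library did not mark strand, so reads of the pair cannot be told apart there.

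Among vascular genes, 23 of 30 fell and 7 did not pass, with a median log2 fold change of -1.45. Tek and Ptprb, of the angiopoietin receptor system, had the lowest log2 fold changes among them. Tek (chr4:94739289-94874976, plus strand) encodes the receptor TIE2 and was at 4284, 1721, 2542, 2484 and 2663 in Ctl (2739 ± 940, SD, n = 5) and 503, 371, 343, 751 and 973 in Smad4del mice (588 ± 269, SD, n = 5). The lowest Ctl mouse was above the highest Smad4del mouse, and the log2 fold change of -2.27 ± 0.30 was the lowest of the 46 genes (limma adjusted p = 0.00213). Ptprb encodes a phosphatase that acts on TIE2 and VE-cadherin and fell from 2791 to 11062 in Ctl to 657 to 2038 in Smad4del mice (-2.16 ± 0.35, limma adjusted p = 0.00531). Tie1, the orphan receptor that pairs with TIE2, was 1537 to 3175 in Ctl and 610 to 1381 in Smad4del mice (-1.48 ± 0.24, limma adjusted p = 0.0055).

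Junction and adhesion genes fell as well. Pecam1 (chr11:106654217-106750628, minus strand), which encodes CD31 and is also known from leukocytes and platelets, was at 4616, 2203, 3594, 3124 and 3518 in Ctl and 774, 882, 787, 1212 and 1459 in Smad4del mice, a log2 fold change of -1.74 ± 0.22 (limma adjusted p = 0.00124). Cdh5, the gene of VE-cadherin, was at 1474, 548, 899, 947 and 901 in Ctl and 351, 318, 229, 383 and 384 in Smad4del mice, a log2 fold change of -1.47 ± 0.23 (limma adjusted p = 0.00528). For both, all Ctl mice were above all Smad4del mice. Esam, an adhesion protein of tight junctions, fell by 1.42 on the log2 scale (limma adjusted p = 0.0138). Cldn5, a claudin, had the smallest change among the genes that fell, -0.89 ± 0.24 (limma adjusted p = 0.0462), and was called in 1 of 10 fits that left out 1 mouse each, that without A5624. Robo4, Cd34 and Ushbp1 passed the test although a Smad4del mouse lay above a Ctl mouse in each, with log2 fold changes of -1.16, -1.22 and -1.26. Their calls were kept in 6, 4 and 4 of the 10 fits that left out 1 mouse, and were lost in all 3 genes without A5221, A5217 or A5218.

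The genes of fenestrae, capillaries and the vessel surface included the most abundant. Plvap (chr8:71497765-71511752, minus strand) encodes the protein of the diaphragms of fenestrae and caveolae and was at 9901, 5224, 10018, 7697 and 8391 in Ctl and 2045, 1683, 1969, 2187 and 3513 in Smad4del mice. The cohorts lay far apart, with a log2 fold change of -1.87 ± 0.21 (limma adjusted p = 0.000752). Gpihbp1, the carrier of lipoprotein lipase on capillaries, was 1245 to 3430 in Ctl and 406 to 944 in Smad4del mice (-1.89 ± 0.29, limma adjusted p = 0.00445). Emcn, a sialomucin of venous and capillary endothelium, was 534 to 848 in Ctl and 174 to 464 in Smad4del mice (-1.52 ± 0.26, limma adjusted p = 0.00699). Vwf, a clotting factor stored in endothelium of larger vessels and also made by megakaryocytes, was 3734 to 8422 in Ctl and 1042 to 3153 in Smad4del mice (-1.74 ± 0.28, limma adjusted p = 0.00576).

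Nos3, the gene of endothelial nitric oxide synthase, averaged 670.0 in Ctl and 174 in Smad4del mice with no overlap (log2 fold change -1.90 ± 0.33, limma adjusted p = 0.00726), and 25.2% of its exon bases lie over an antisense gene. Clec14a and Mmrn2 encode a lectin of the endothelial surface and the matrix protein it binds, and they fell by 1.84 and 1.58 on the log2 scale (limma adjusted p = 0.00289 and 0.0102). Egfl7, a secreted protein of growing vessels, was 939 to 1509 in Ctl and 431 to 651 in Smad4del mice, with the smallest standard error among the genes that fell (-1.12 ± 0.15, limma adjusted p = 0.00222). Rasip1, which is needed for vessel lumens, fell by 1.31 on the log2 scale (limma adjusted p = 0.00762) and shares 20.4% of its exon bases with Izumo1, a neighbour on the same strand.

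The SOXF factors, which act together in endothelial gene regulation, all fell. Sox7 (chr14:63943673-63950732, plus strand) was at 913, 365, 789, 435 and 467 in Ctl and 106, 112, 127, 181 and 124 in Smad4del mice, a log2 fold change of -2.12 ± 0.26 (limma adjusted p = 0.00131). Sox17, also known from biliary epithelium, was at 472, 280, 539, 291 and 485 in Ctl and 104, 102, 125, 172 and 120 in Smad4del mice (-1.70 ± 0.23, limma adjusted p = 0.00251). It shares 16.8% of its exon bases with a gene on the opposite strand. Sox18 was 323 to 479 in Ctl and 136 to 265 in Smad4del mice, a smaller change of -0.95 ± 0.20 (limma adjusted p = 0.0182), whose call was lost without A5217. None of the SOXF genes overlapped between cohorts. The intervals of Sox7, -2.70 to -1.54, and Sox18, -1.39 to -0.51, did not overlap either, and the difference between the genes was not tested.

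The other transcription regulators among the vascular genes did not pass. Erg, an ETS factor of endothelium, had low counts of 28.0 to 132 in Ctl and 13.2 to 46.1 in Smad4del mice (log2 fold change -1.22, interval -2.25 to -0.19, limma adjusted p = 0.125). Tal1, a helix-loop-helix factor of blood and endothelium, was at 25.5 to 34.8 in Ctl and 6.26 to 29.5 in Smad4del mice (-1.15, interval -2.11 to -0.19, limma adjusted p = 0.121). Lmo2, an adaptor in complexes with it that blood cells also express, was 316 to 1000 in Ctl and 147 to 402 in Smad4del mice (-1.21, interval -1.95 to -0.48, limma adjusted p = 0.0511). These intervals all lie below 0, and none of these genes passed by limma in all 10 mice after adjustment over all genes. Lmo2 was called lower in 8 of 27 alternative fits, Erg in 0 of 27 and Tal1 in 0 of 26.

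Ecscr, Podxl and Ramp3 departed most from the other vascular genes. Ecscr, an endothelial surface protein of cell movement, was at 1061, 1267, 1394, 1250 and 1410 in Ctl and 1041, 1107, 1057, 941 and 1048 in Smad4del mice, so that the cohorts overlapped at A5215 alone. Its log2 fold change was -0.29, with an interval of -0.50 to -0.08 (limma adjusted p = 0.0844). Podxl, a sialomucin of the luminal membrane also found in mesothelium and epithelia, was at 2106, 1545, 2521, 2245 and 2398 in Ctl and 1296, 1293, 1194, 1976 and 1737 in Smad4del mice (-0.54, interval -0.90 to -0.17, limma adjusted p = 0.069). Of 27 alternative fits, Ecscr was called lower in 2 and Podxl in 4. For Ecscr and Podxl the intervals lay above the median of the vascular genes. The intervals of Sox18, Cldn5 and Ramp3 did so as well, while those of Tek and Sox7 lay below it.

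Ramp2 and Ramp3 encode accessory proteins that make the receptor CALCRL respond to adrenomedullin, and they differed in direction. Ramp2 (chr11:101246028-101259546, plus strand) was at 1444, 882, 1465, 925 and 1091 in Ctl and 517, 400, 304, 508 and 576 in Smad4del mice. No Smad4del mouse reached a Ctl mouse, with a log2 fold change of -1.33 ± 0.20 (limma adjusted p = 0.00412), although 33.4% of its exon bases are shared with Vps25 on the same strand. Ramp3 (chr11:6658521-6677475, plus strand) was at 348, 73.9, 217, 50.8 and 75.5 in Ctl and 337, 183, 277, 140 and 199 in Smad4del mice. A5215 lay above every Smad4del mouse, A5221 within their range and the other Ctl mice below it, and the difference of 0.89 had an interval of -0.18 to 1.95 (limma adjusted p = 0.26). The difference between Ramp2 and Ramp3 was not tested. Aplnr, the apelin receptor, was listed at 0 in A5216 and A5218, at 10.1 to 45.9 in the other Smad4del mice and at 10.2 to 38.9 in Ctl mice, too low for a difference to be seen (interval -4.10 to 0.54).

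**Figure D2:**
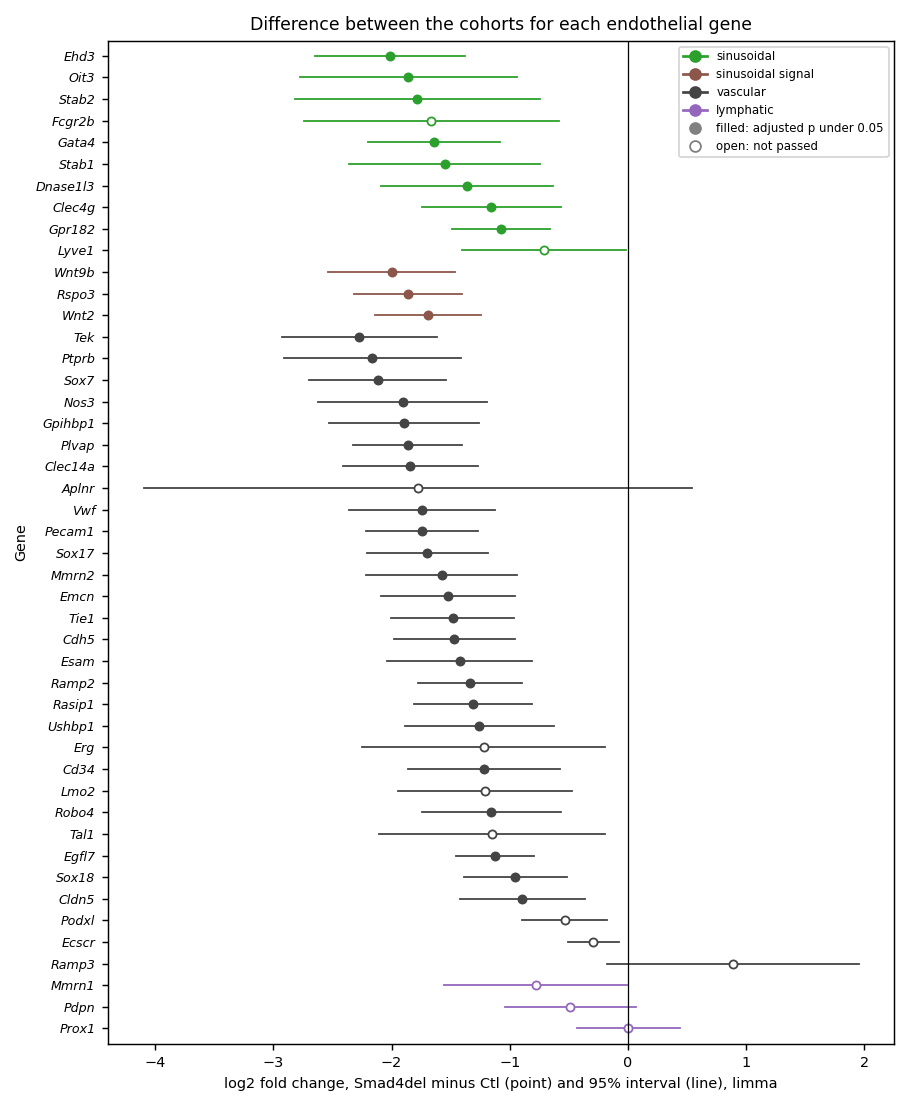
Log2 fold change of each gene, Smad4del minus Ctl (point), with its 95% interval from limma (line), by class. Filled points passed an adjusted p of 0.05. The sinusoidal, signal and vascular genes lie mostly between -2.27 and -0.89, Ramp3 is at 0.89 and Prox1 at 0.00.

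None of the lymphatic markers passed, and their median log2 fold change was -0.49. By limma 0 of 3 fell, and 1 was lower at an unadjusted p under 0.05, while DESeq2 and edgeR also called 0. Prox1 (chr1:190118035-190170714, minus strand) was at 1781, 2160, 2088, 1834 and 2926 in Ctl and 1289, 2336, 2051, 2589 and 2713 in Smad4del mice. The cohorts had nearly the same mean, 2158 ± 459 and 2196 ± 567 (SD, n = 5 each), and the interval of the log2 fold change, -0.43 to 0.44, did not reach the fall of any gene that passed. With the macrophage level as a covariate Prox1 was lower, with a log2 fold change of -0.50 (limma adjusted p = 0.0431). Mmrn1 (chr6:60924976-60989378, plus strand), a multimerin of lymphatic endothelium and platelets, was at 3716, 2174, 1778, 1878 and 1170 in Ctl and 993, 1248, 637, 1041 and 2572 in Smad4del mice (-0.78, interval -1.55 to -0.01, limma adjusted p = 0.178). Its highest Smad4del value was in A5624. Pdpn (chr4:143267431-143299564, minus strand), podoplanin, was at 539, 803, 808, 905 and 606 in Ctl and 651, 331, 360, 851 and 530 in Smad4del mice (-0.49, interval -1.04 to 0.06, limma adjusted p = 0.233). All 3 are known from other cells that could be in the samples. Some endothelial genes outside the group of 46 are also used for lymphatic endothelium. Of these, Nrp2 was lower, with a log2 fold change of -1.18 (limma adjusted p = 0.0229). Flt4 (-0.95), Foxc2 (-1.25), Itga9 (-0.86), Reln (-0.62) and Nr2f2 (0.27) did not pass. Ccl21a, a gene with near-identical copies for which counting is uncertain, was listed at 0 in all mice.

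The classes can be set side by side as a description. The 13 sinusoidal genes with their signals, of which 11 fell, had a median log2 fold change of -1.66, against -1.45 for the 30 vascular and -0.49 for the 3 lymphatic genes. The mean log2 level of the 10 sinusoidal genes minus that of the 30 vascular genes was 1.91, 1.31, 0.97, 1.62 and 0.83 in the Ctl mice and 1.36, 1.34, 0.93, 1.21 and 1.25 in the Smad4del mice. The ranges overlapped, and every Smad4del mouse lay within the range of the Ctl mice. The highest differences, in A5215 and A5626, were in the mice with the highest macrophage level, and the part of macrophage RNA in them was not tested.

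**Figure D3:**
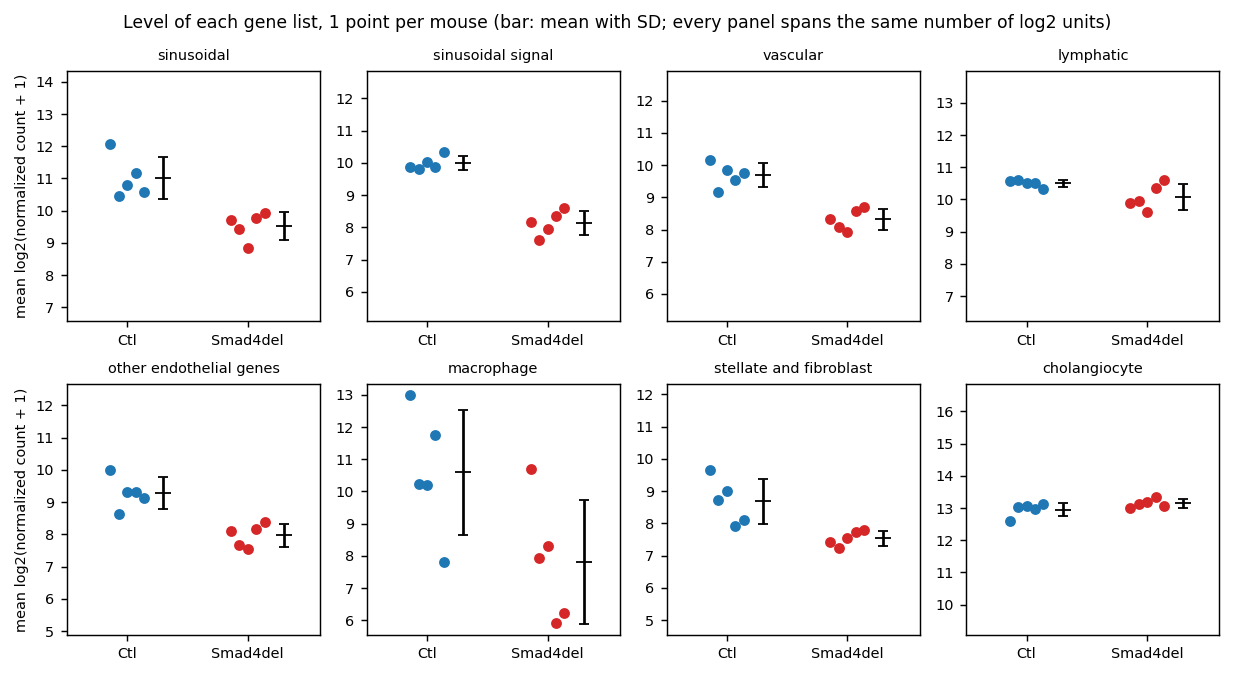
Mean log2(normalized count + 1) of each list of genes in each mouse, with the mean and SD of each cohort in black; every panel spans the same number of log2 units. The sinusoidal, signal, vascular, other endothelial, and stellate and fibroblast levels do not overlap between cohorts. The lymphatic, macrophage and cholangiocyte levels do, and the macrophage levels range from 5.91 to 12.98.

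Within each mouse, levels were also taken relative to the mean log2 level of the 30 vascular genes, which itself was lower in Smad4del mice. On this scale 65.3% of all genes tested were higher in every Smad4del than in every Ctl mouse and 0.202% lower, since the vascular mean is subtracted from every gene. Among the endothelial genes 4 were higher in every Smad4del mouse, namely Ramp3, Prox1, Ecscr and Podxl, with differences of 2.26, 1.38, 1.08 and 0.84 log2 units. Tek, Sox7, Plvap and Pecam1 were lower in every Smad4del mouse, with differences of -0.90, -0.74, -0.49 and -0.37 log2 units. For Tek the relative level was 1.47 to 1.90 in Ctl and 0.45 to 1.24 in Smad4del mice. For Pecam1 it was 1.95 to 2.06 in Ctl and 1.26 to 1.83 in Smad4del mice. No sinusoidal gene was apart on this scale, with differences from -0.64 (Ehd3) to 0.66 (Lyve1). These values are descriptions, as the vascular mean contains the vascular genes themselves.

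**Figure D4:**
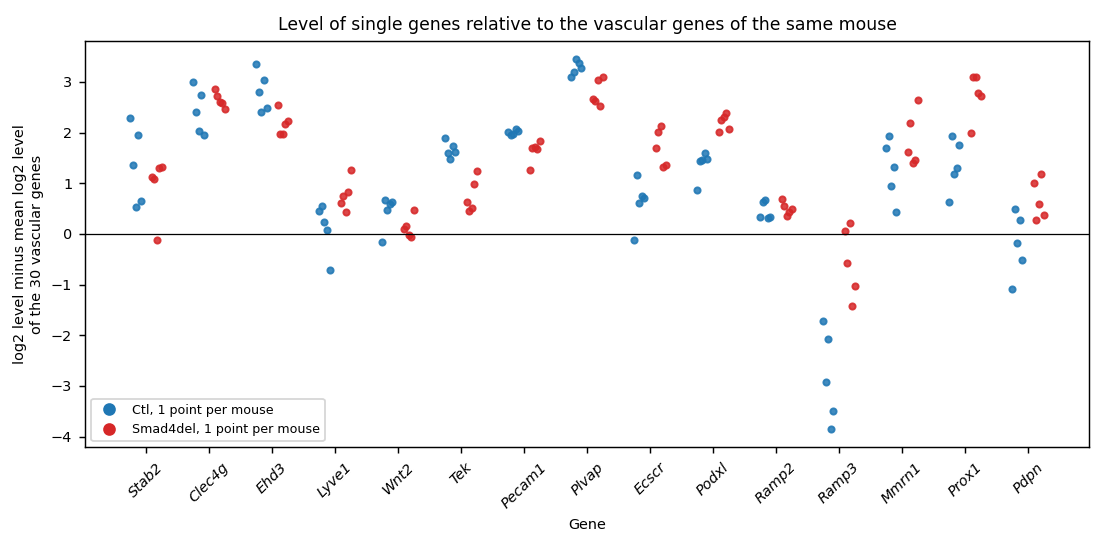
Log2 level of 15 genes minus the mean log2 level of the 30 vascular genes in the same mouse, with 1 point per mouse. Ecscr, Podxl, Ramp3 and Prox1 are higher in all Smad4del mice, and Tek, Pecam1 and Plvap are lower in all of them.

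Levels of different genes can be compared only per length, here as normalized counts per kilobase of exon. On that scale Plvap was the most abundant of the 46 genes in both cohorts, at 4150 in Ctl and 1147 in Smad4del mice, followed by Clec4g at 1977 and 823. The next in Ctl mice were Gpihbp1 at 979 and Ehd3 at 961, which stood at places 8 and 9 in Smad4del mice with 261 and 230. Ecscr moved from place 6 to 3 with 729 and 593, Pdpn from 17 to 5 with 403 and 299.8, Podxl from 19 to 6 with 394 and 273, and Prox1 from 29 to 7 with 257 and 262. Tek moved the other way, from place 7 to 22, with 581 in Ctl and 125 in Smad4del mice. Erg, Tal1 and Aplnr had the lowest levels in both cohorts, at most 21.9 normalized counts per kilobase.

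Other genes known from endothelium, 50 in a second list, mostly moved the same way. Of 49 tested, 30 fell and 0 rose, where 4.69% of all genes were lower and 2.43% higher. The median log2 fold change of the 49 was -1.47, and 46 were below 0. Bmp6 (0.19), Nr2f2 (0.27) and Esm1 were above 0 and did not pass. The 6 with the smallest p were Exoc3l2 (-2.50), Fabp4 (-1.66), Adgrl4 (-2.12), Cd300lg (-2.31), Ets1 (-1.28) and Eng (-1.81), and in each every Smad4del mouse was below every Ctl mouse. The same held for 27 of the 49, against 4.59% of all genes. Fabp4, a fatty acid carrier of capillary endothelium, was at 1169 to 2518 in Ctl and 514 to 765 in Smad4del mice. Eng, the co-receptor endoglin for BMP and TGFβ ligands, was 2518 to 6688 in Ctl and 825 to 1736 in Smad4del mice. Esm1, a secreted product of endothelial tip cells, had a log2 fold change of 2.03 and did not pass (limma adjusted p = 0.139). Esm1, Bmp6 and Nr2f2 are named because of their values and not by rule.

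Markers of other cell types were measured in the same libraries. The summed level of 18 macrophage markers lay between 15171 and 302798 normalized counts in Ctl mice and between 5724 and 88409 in Smad4del mice, with the ranges overlapping, A5215 the highest and A5216 the highest of its cohort. All 18 had a log2 fold change below 0, 1 passed, and the median was -2.51. Lyz2 and Mpeg1 had the highest counts over all 10 mice, not corrected for length. Lyz2 was 7323 to 91767 in Ctl and 1156 to 43383 in Smad4del mice, and Mpeg1 was 2483 to 24278 and 2558 to 7511. With each mouse's macrophage level as a covariate in limma, 24 of the 46 endothelial genes were lower, against 342 of all genes tested. The count of sinusoidal genes with their signals dropped from 11 to 5. In that fit Prox1 was called lower. Without A5215, 30 of the 46 endothelial genes were lower, against 461 of all genes tested. With all 10 mice these counts were 34 and 697.

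Stellate cell and fibroblast markers followed the same direction with no overlap of their mean log2 levels, 7.93 to 9.65 in Ctl and 7.22 to 7.79 in Smad4del mice. Of 15 tested, 3 fell and the median log2 fold change was -1.17, and their summed level lay between 31328 and 60756 normalized counts in Ctl mice and between 21276 and 30681 in Smad4del mice. Dcn, the gene of the matrix proteoglycan decorin, was 7035 to 25813 in Ctl and 1795 to 4791 in Smad4del mice, while Rgs5 was 10946 to 15721 and 12324 to 15243. With the stellate level as a covariate, 0 of the 46 endothelial genes and 12 of all genes were lower by limma after adjustment. At an unadjusted p under 0.05, 25 of the 46 were lower, as were 3.44% of all genes. In this fit the median log2 fold change was -1.02 for the sinusoidal genes with their signals and -1.005 for the vascular genes. As the stellate level separates the cohorts, it and the cohort cannot be told apart in that fit.

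In the remaining lists few or no genes passed, and the genes named are those with the highest counts over all 10 mice, not corrected for length. Of 8 mesothelial markers 0 passed, with a median of -1.35 and summed levels of 8955 to 21374 in Ctl and 7137 to 13604 in Smad4del mice, with Msln and Gpm6a highest. Hepatocyte markers, with Gc and Alb highest, summed to 68347 to 98649 and 73532 to 114838 (0 of 15 passed, median 0.67), and cholangiocyte markers, with Spp1 and Cdh1 highest, had 2 of 14 higher and a median of 0.24. Megakaryocyte and platelet markers, with Ppbp and Itga2b highest, summed to 1175 to 9349 in Ctl and 1444 to 7830 in Smad4del mice (0 of 11 passed, median 0.71). Erythroid markers, with Hbb-bs and Alas2 highest, had 0 of 4 tested pass and 2 of 8 at 0 in all mice, and their sums were 168 to 2787 and 36.8 to 6257. Lymphocyte markers, with Cd79b and Cd79a highest, summed to 12.2 to 229 and 15.7 to 103 (0 of 2 tested passed), and neutrophil markers, with Csf3r and S100a9 highest, to 234 to 3041 and 86.6 to 1878 (0 of 6 passed, 1 of 7 at 0 in all mice). The part of these cells in the endothelial values was not tested. Of the 28 endothelial genes not known from another of these cells, 24 fell, with a median of -1.55, and of the 18 that are, 10 fell, with a median of -1.29.

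The mice carry numbers of 2 kinds, A52 (3 Ctl and 3 Smad4del) and A54 or A56 (2 and 2), and what the numbers stand for is not given. Within the A52 mice 45 of 46 genes were below 0, and in 38 every Smad4del mouse was below every Ctl mouse, which held for 14.9% of all genes. Limma called 7 of these 46, and 50 of all genes, lower. Within the other mice 42 of 46 were below 0 and 40 did not overlap, against 22.2% of all genes, while limma with 2 mice against 2 called 0 genes of the whole table (at an unadjusted p under 0.05, 35 of the 46 were lower, as were 6.91% of all genes). The median log2 fold change was -1.65 in the A52 mice and -1.11 in the others. Lyve1 was lower in the Smad4del mice of the A52 numbers (1159 and 426, means of Ctl and Smad4del) and higher in those of the other numbers (655 and 830.1). Mmrn1 did the same, with 2556 and 959 in the A52 mice and 1524 and 1807 in the others. Ramp3 was higher in Smad4del mice in both, by 0.53 and 1.42 log2 units.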

How the data were processed

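Sorted cells of 5 Ctl and 5 Smad4del mice were analysed as 1 sample per mouse. To make the deposited signal values, single-end reads were trimmed by the authors with Trimmomatic 0.36, aligned with STAR to GRCm38.p5 (the labels also name mm9), counted per gene with featureCounts and divided by DESeq2 1.14.1 size factors in R 3.3.2. Whether multi-mapping reads were included is not given. The library did not mark strand.

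All values were whole multiples of the mouse's smallest value (relative tolerance 1e-06), which gave back the reads. In A5217 1 read is worth 0.998, too near 1 to tell apart from rounding by its steps alone, so count tests were also run without that mouse. The table holds 49568 genes, 22557 of them at 0 throughout, and those averaging 10 or more (14870) were tested with limma 3.58.1 (R 4.3.3) on log2(normalized count + 1). The variance prior was trended, with no term but the cohort, and p-values adjusted by Benjamini-Hochberg (threshold 0.05). A fold change on this scale can understate or overstate the ratio of means of low genes. For Aplnr it was -1.78, while the Smad4del mean was 65.2% of the Ctl mean. The recovered reads were also tested with edgeR 4.0.16 and DESeq2 1.42.0 as alternatives. Exact two-sided permutation tests used all 252 splits. On simulated data of 14870 genes for this comparison limma recovered 49 of 100 genes given a 2-fold change and 88 of 100 given a 4-fold change, and called 6 unchanged genes, where edgeR also called 6 and DESeq2 44. Replicate mice differed beyond counting noise. Nothing in the labels names litters, so p-values measure the spread between these mice.

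Exon lengths, positions and overlaps are from GENCODE M21. The study counted reads on an earlier GENCODE release, in which exons and overlaps may differ. The genes and lists were chosen with earlier results of these data known. All 46 endothelial genes are described, with up to 6 other endothelial genes of smallest p and the 2 most abundant genes of each other list. Further endothelial genes were named by value or by role, outside this rule. The alternatives were other pseudocounts (0.5, 10), filters (none, a mean of 50), scalings, tests, a robust prior, covariates, subsets of mice and leaving out each mouse.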

Additional observations from a re-analysis of the deposited data

Results flagged for a closer look

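In 92 groups of 5 mice, 46 genes in each cohort, 2 single mice lay beyond Dixon's 95% limit of 0.71 for the gap to the nearest mouse over the range, and chance alone gives about 1 group in 20. Fcgr2b in the Smad4del mouse A5216 was at 1947 normalized counts, where the next highest Smad4del mouse was at 772. A5216 also had the highest macrophage level of its cohort, and the part of macrophage RNA in the value was not tested. Cldn5 in the Ctl mouse A5215 was at 922 normalized counts, where the other Ctl mice were at 409 to 476.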

How the results depend on the processing

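The number of endothelial genes called lower was 34. It stayed within 24 and 38 under other pseudocounts, filters, scalings, priors and count tests. The same range held with the mouse number kind or the macrophage level as a covariate. Of all genes tested, 265 to 1290 were lower in these fits. The endothelial count was 7 in the A52 mice alone, 0 in the A54 and A56 mice alone and 0 with the stellate level as a covariate. The last pair of these settings was chosen after seeing the data. With the stellate covariate 12 of all genes were lower. Leaving out 1 mouse gave 25 to 34 endothelial genes, with 24 called in all 10 such fits. Over all genes 324 to 841 were lower in those fits. For the 13 sinusoidal genes and signals the 11 became 6 with edgeR without A5217, 5 with the macrophage covariate and 0 with the stellate covariate. It was 2 in the A52 mice and 0 in the A54 and A56 mice. Where only the 7 sinusoidal genes and signals not known from other liver cells were counted, all 7 were lower. Without 1 mouse the count among the 13 was 6 to 11, the lowest without the Ctl mouse A5626 or the Smad4del mouse A5218 (7 without A5217). The vascular count of 23 became 0 with the stellate covariate, 5 in the A52 mice and 0 in the A54 and A56 mice. The lymphatic count of 0 became 1 with the macrophage covariate, where Prox1 had a log2 fold change of -0.50 (limma adjusted p = 0.0431). With the stellate covariate the median log2 fold changes were -1.02 (sinusoidal with signals), -1.005 (vascular) and -0.083 (lymphatic). The lymphatic median was 0.14 in the A54 and A56 mice. The cause of these shifts was not tested. Fits in the smaller subsets have few mice, and 50 and 0 of all genes were lower there. Over all genes the split of lower and higher calls was 697 to 362, against 607 to 579 with quantile normalization and 639 to 626 with medians set equal. With edgeR without A5217 it was 265 to 89. No endothelial gene was called higher in any fit (0 with limma, DESeq2 and edgeR; at most 1 at an unadjusted p under 0.05). The methods of the study say that controls were littermates where possible. Which mice shared a litter is not given, so no paired analysis was run.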
